A study of Mus musculus with 8 samples.

Results

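The genes described here serve the secretory pathway and the unfolded protein response (UPR) of lung mesenchymal cells after bleomycin. They were taken from a list of 35 gene symbols, and each was represented by the row of the array table annotated to that symbol alone, or by the brightest such row. Of the 35, 34 were measured among 22180 genes, and Pdia4, which shares its row with another annotation, was not analysed here. Both groups were C57BL/6J mice, 11 weeks old and kept pathogen-free. The control mice received phosphate-buffered saline and the others bleomycin, an antibiotic that breaks DNA and injures the lung, each through the trachea. On day 10 cells negative for CD45, CD31 and EpCAM, antigens of leukocytes, endothelium and epithelium, were sorted by flow cytometry, and their RNA was hybridised to 4 control and 4 bleomycin arrays. The dose of bleomycin and the number of animals behind an array are not given in the labels, so the p-values measure only how these arrays vary, and that variation may be technical.

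Proteins bound for secretion enter the endoplasmic reticulum (ER) through the Sec61 channel, are folded there by chaperones and disulfide isomerases, and leave in vesicles coated with COPII. KDEL receptors return escaped ER chaperones from the Golgi, and proteins that fail to fold are sent to the proteasome. The sensors IRE1, PERK and ATF6 respond to unfolded protein in the ER and raise the expression of chaperones and degradation factors through XBP1, ATF4 and the cleaved form of ATF6. Fibroblasts that lay down collagen carry a heavy load through this pathway, and the related factors CREB3L1 and CREB3L2 are known from bone and cartilage for raising its export capacity.

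Promoter sequences are shown for 6 of the genes, because they hold elements through which UPR factors are known to act and because they include members that rose, that fell and that did not pass. The sequences are those of RefSeq on GRCm38.p6, read 5′ to 3′ on the gene's strand, and each lies within the 250 bases before the start site. Capitals mark the fixed letters of the ER stress element in Hspa5, Calr and Pdia6 (CCAAT, then 9 free bases, then CCACG, on either strand), the ER stress element II in Herpud1 (ATTGG, then 1 free base, then CCACG), and the unfolded protein response element TGACGTGG in Sec24d and, on the other strand, in Kdelr3.
Hspa5, chr2:34771980-34772068 (+): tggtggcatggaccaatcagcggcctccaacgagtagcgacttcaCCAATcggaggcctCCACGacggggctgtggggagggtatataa
Calr, chr8:84847050-84847138 (-): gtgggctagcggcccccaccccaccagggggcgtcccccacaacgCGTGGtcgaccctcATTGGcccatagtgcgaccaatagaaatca
Pdia6, chr12:17266446-17266534 (+): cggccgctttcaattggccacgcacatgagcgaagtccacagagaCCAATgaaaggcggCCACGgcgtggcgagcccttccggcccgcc
Herpud1, chr8:94386332-94386412 (+): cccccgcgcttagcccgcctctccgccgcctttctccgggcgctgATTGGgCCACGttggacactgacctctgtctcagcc
Sec24d, chr3:123267425-123267495 (+): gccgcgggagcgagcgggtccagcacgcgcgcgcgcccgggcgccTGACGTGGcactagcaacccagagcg
Kdelr3, chr15:79516333-79516407 (+): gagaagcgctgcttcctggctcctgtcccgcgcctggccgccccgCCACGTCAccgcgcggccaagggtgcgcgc
In the 250 bases before the start site, the ER stress element was found in 8 of the 29 measured members that have a promoter in the table (27.6%) and in 35 of all 27025 genes of the table (0.13%). It lay before 7 of 13 folding genes (Hspa5, Hsp90b1, Calr, Canx, Pdia6, Dnajc3 and Creld2) and before the ligase gene Syvn1. The element TGACGTGG was found in 2 members, Sec24d and Kdelr3, and in 0.603% of all genes. The ER stress element II, whose CCACG it shares with the first element, was found in Herpud1 and in 0.037% of all genes. The cyclic AMP response element TGACGTCA, which shares its first bases with TGACGTGG, was in no member and in 1.77% of all genes. The C/EBP-ATF element TGATGNAAN, at which ATF4 is known to act, was in Herpud1 and in 3.89% of all genes. A match describes these letters and not a bound site.

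The folding genes Calr, Pdia3, Pdia5, Pdia6 and Dnajb11, the vesicle coat genes Sec23a and Sec24d, the retrieval receptor genes Kdelr2 and Kdelr3, and the transcription factor genes Creb3l1 and Creb3l2 rose after bleomycin. Herpud1, Atf6 and Atf4 fell. The central chaperone gene Hspa5 and 19 other members did not pass the test. Of the 34 measured members 11 rose and 3 fell by limma with Benjamini-Hochberg adjustment over all genes, where 9.12% of the 22180 genes rose and 8.24% fell. The groups did not overlap in 13 members with bleomycin above and in 4 with bleomycin below, against 12.5% and 11% of all genes. The counts of members that fell and of members with bleomycin below lie near these shares of all genes. The median log2 difference was 0.15 for the members and 0.03 for all genes. The changes were small, and Pdia5 at 2.04-fold was the only member past 2-fold. The number that rose was 7, 6, 7 and 7 without control replicate 1, control replicate 3, bleomycin replicate 1 and bleomycin replicate 3, and 7 of the 14 calls held in all 8 fits that left out 1 array. The groups of all 14 did not overlap, so none could change sign within replicates 1 and 2 alone or replicates 3 and 4 alone. With so few arrays 2 and 0 members rose, and 0 fell in either, by limma. At an unadjusted p under 0.05, 15 members were higher and 4 lower with all arrays, 7 and 3 within replicates 1 and 2, and 14 and 4 within replicates 3 and 4. The matching share of all genes was not counted, here or for the unadjusted counts below.

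**Figure D1:**
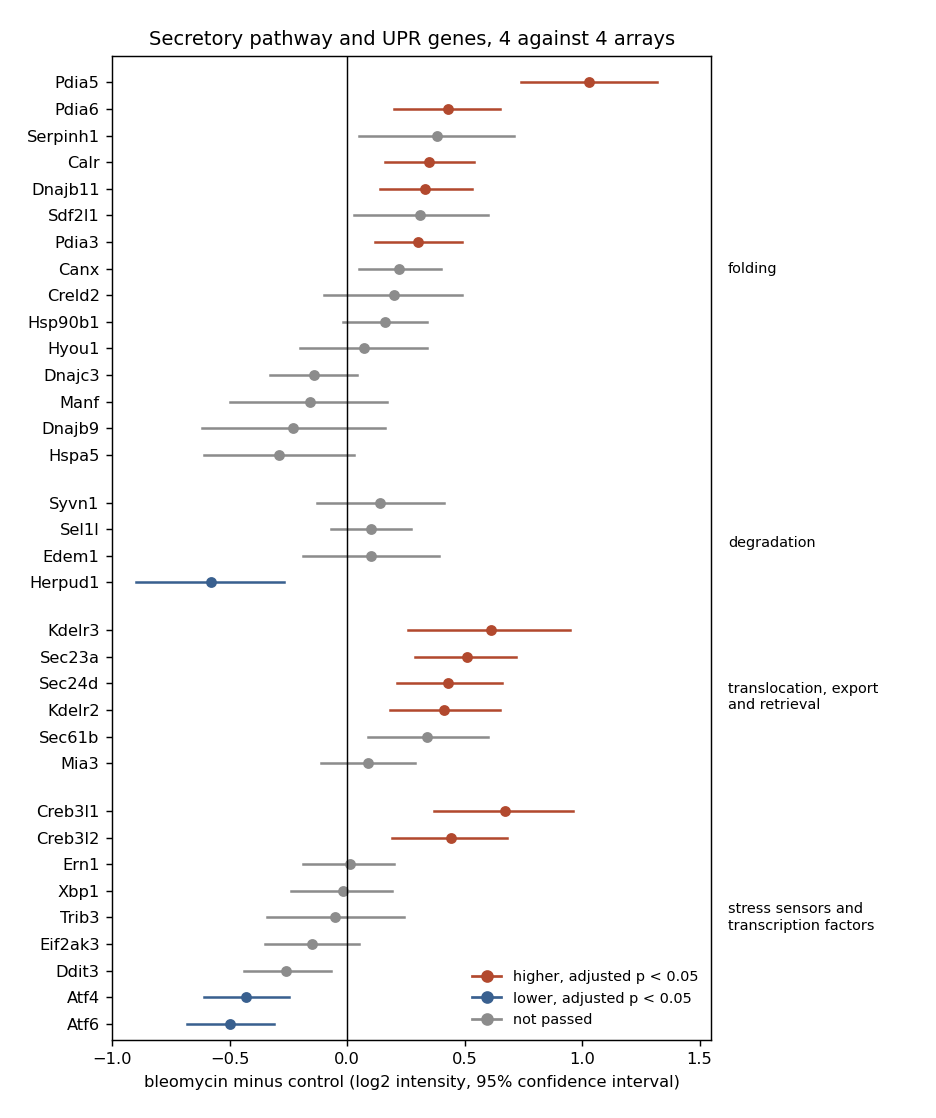
Difference between bleomycin and control arrays (log2 intensity, horizontal axis) for the 34 measured genes, grouped by role, with 95% confidence intervals from limma; colours mark genes that passed at an adjusted p of 0.05. In the export group 4 of 6 genes lie to the right of 0 with passing tests, and among the sensors and transcription factors 2 pass on each side. Over all genes 9.12% passed as higher and 8.24% as lower.

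Markers of other cell types moved with the groups, and their part in the results was tested only by the covariate and the left-out controls given here. Of 12 alveolar epithelial markers 11 were lower after bleomycin, and their mean level was 8.23 to 9.06 on control and 6.66 to 7.50 on bleomycin arrays. Of 10 endothelial markers 8 were lower (8.24 to 9.28 against 7.46 to 7.89), and both lists were higher on control replicates 1 and 2 than on 3 and 4. Of 12 macrophage markers 7 were higher (6.28 to 6.57 against 6.76 to 7.08), and all 9 mitosis genes were higher (4.88 to 5.09 against 6.63 to 7.63). Of 10 markers of plasma and B cells, which secrete heavily, 1 was higher and 3 lower, and their mean lay at 5.24 to 5.42 on control and 5.19 to 5.31 on bleomycin arrays, and Jchain and Mzb1 averaged 4.64 and 4.67 in control, near the medians of 4.44 to 4.52 of rows with no gene. Of 12 mesenchymal markers 8 were higher and 2 lower (9.94 to 10.13 against 10.56 to 10.79), and the fibroblast marker Pdgfra lay at 12.58 ± 0.05 in control and 12.15 ± 0.09 after bleomycin. The gate genes Ptprc, which is also in the macrophage list, and Epcam averaged 6.69 and 4.99 in control. After bleomycin they averaged 6.22 and 4.43, and neither passed (limma adjusted p = 0.0529 and 0.0547). The gate gene Pecam1 averaged 9.87 in control and 8.56 after bleomycin, well above rows with no gene. In such samples fewer cells of a type and less RNA per cell cannot be told apart. With the mean of the epithelial and endothelial markers as a covariate, which itself separates the groups, no member passed by limma (1 higher and 2 lower at an unadjusted p under 0.05) and all 14 called members kept their sign. With control replicates 3 and 4 as the only controls 2 members rose and 3 fell.

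Among 15 measured folding genes 5 rose and 0 fell by limma, against 9.12% and 8.24% of all genes, and the median difference was 0.22. At an unadjusted p under 0.05, 8 were higher and 0 lower. Pdia5, a protein disulfide isomerase, changed most. It lay at 6.59, 6.74, 6.55 and 6.73 on control replicates 1 to 4 and at 7.87, 7.51, 7.95 and 7.41 on bleomycin replicates 1 to 4 (log2 intensity). Every bleomycin array lay above every control array, and the difference was 1.03 ± 0.13 (log2 ± SE, n = 4 each, limma adjusted p = 0.000516). It was 1.02 within replicates 1 and 2 and 1.04 within replicates 3 and 4, where it did not pass.

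Pdia6, an isomerase that also restrains IRE1 and PERK signalling, lay at 10.36, 10.63, 10.56 and 10.67 in control and at 10.92, 10.91, 11.16 and 10.94 after bleomycin. The groups did not overlap, and the difference was 0.43 ± 0.10 (limma adjusted p = 0.0152). Calr, the calcium-binding lectin chaperone calreticulin, was even among the controls apart from replicate 2, at 11.72, 11.88, 11.71 and 11.72, and lay at 12.18, 12.06, 12.17 and 12.03 after bleomycin. It rose by 0.35 ± 0.08 (limma adjusted p = 0.017), and the call was lost without control replicate 3 (adjusted p = 0.0514). Pdia3, the isomerase that works with calreticulin and calnexin on glycoproteins, rose from 11.36 ± 0.06 to 11.66 ± 0.08 (SD, n = 4 each, limma adjusted p = 0.0305). Its call held in 2 of the 8 fits without 1 array, with adjusted p up to 0.0829, and was lost with median centring. Its membrane-bound partner calnexin, Canx, went from 11.56 ± 0.06 to 11.79 ± 0.05 with no overlap, and its difference of 0.22 did not pass (limma adjusted p = 0.0826, 95% interval 0.05 to 0.40). All 5 of these lectin and isomerase genes lay above the controls on every bleomycin array, against 12.5% of all genes. They were grouped after their values were seen, so the count is no separate result.

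Of the 7 genes of the Hsp70 and Hsp90 machinery, also grouped after their values were seen, Dnajb11 rose and the others did not pass. Hspa5 encodes BiP, the Hsp70 chaperone whose release from the sensors is the textbook trigger of the UPR. It lay at 9.73, 10.07, 10.27 and 10.06 in control and at 9.82, 9.38, 9.84 and 9.92 after bleomycin. The groups overlapped because control replicate 1 was low, and the difference of -0.29 ± 0.15 did not pass (limma adjusted p = 0.209, 95% interval -0.61 to 0.03). The difference was -0.39 without control replicate 1 and -0.17 without bleomycin replicate 2. The interval of the full data holds no rise above 0.03. Hsp90b1, the ER Hsp90 GRP94, lay at 11.97 to 12.10 in control and 12.12 to 12.28 after bleomycin, a difference of 0.16 that did not pass (adjusted p = 0.205).

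Among the helpers of BiP, Dnajb11, a cochaperone that binds unfolded clients, rose by 0.33 ± 0.09 from 8.40, 8.66, 8.47 and 8.42 to 8.84, 8.78, 8.89 and 8.79 (limma adjusted p = 0.0253). The groups did not overlap, but 5 of the 8 fits without 1 array lost the call, with adjusted p up to 0.0721. Hyou1, a nucleotide exchange factor of BiP, differed by 0.07 (95% interval -0.20 to 0.34). Dnajb9, a strongly IRE1-dependent cochaperone, differed by -0.23 (-0.62 to 0.16), and its bleomycin arrays spread widely, at 10.13, 9.52, 9.35 and 9.63. Dnajc3, which inhibits PERK, differed by -0.14 (-0.33 to 0.04), and Sdf2l1, a partner of the cochaperones, by 0.31 (0.03 to 0.60, adjusted p = 0.131). None of these 4 passed, and their groups overlapped.

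Of the remaining folding genes none passed. Serpinh1, the collagen chaperone HSP47, lay at 9.73, 10.16, 10.27 and 10.37 in control and 10.41, 10.32, 10.77 and 10.56 after bleomycin. Only bleomycin replicate 2 reached into the range of the controls, and the difference of 0.38 ± 0.15 had a limma adjusted p of 0.112. With a block that set replicates 1 and 2 apart from 3 and 4 Serpinh1 passed, and with the marker covariate it differed by -0.12. Creld2 and Manf, small proteins made under ER stress, differed by 0.20 (95% interval -0.10 to 0.49) and -0.16 (-0.50 to 0.17). The number of folding genes that rose was 3, 2, 3, 3 and 3 without control replicates 1, 3 and 4 and bleomycin replicates 1 and 3, in that order.

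Among the 4 genes of ER-associated degradation Herpud1 fell and the others did not pass. Herpud1, a scaffold of the degradation complex and one of the most inducible UPR genes, lay at 10.19, 10.41, 10.67 and 10.46 in control and at 10.03, 9.54, 9.76 and 10.07 after bleomycin. Every bleomycin array lay below every control array, by a narrow margin for control replicate 1. The difference was -0.58 ± 0.14 (limma adjusted p = 0.0169), and the call was lost without control replicate 3 (adjusted p = 0.0502). The ligase gene Syvn1, which carries an ER stress element as Hspa5 does, differed by 0.14 (95% interval -0.13 to 0.41). Its partner Sel1l differed by 0.10 (-0.07 to 0.27) and the lectin gene Edem1 by 0.10 (-0.19 to 0.39). A second, dimmer row of Edem1 differed by 0.25 ± 0.09 and did not pass either (adjusted p = 0.0951).

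In the translocation, export and retrieval group 4 of 6 genes rose, against 9.12% of all genes, and the median difference was 0.42. All 6 differences were positive, as were those of 12152 of all 22180 genes. Sec23a, a subunit of the inner COPII coat, lay at 9.16, 9.28, 9.31 and 9.22 in control and at 9.95, 9.62, 9.80 and 9.62 after bleomycin. The gap between the groups was wider than the range of the controls, and the difference was 0.51 ± 0.10 (limma adjusted p = 0.00578). Sec24d, the coat subunit that selects cargo and on which collagen secretion in the skeleton is known to depend, rose by 0.43 ± 0.10, from 9.36, 9.48, 9.55 and 9.48 to 10.04, 9.71, 10.05 and 9.80. The 2 coat genes kept their calls in each fit that left out 1 array.

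Kdelr2 and Kdelr3 encode receptors that return proteins with a KDEL tail, among them BiP and the isomerases, to the ER. Kdelr3 lay at 8.90, 9.54, 9.60 and 9.40 in control and at 10.03, 9.80, 10.15 and 9.89 after bleomycin, with control replicate 1 far below the other controls. It rose by 0.61 ± 0.15, or 1.52-fold (limma adjusted p = 0.022). Kdelr2 rose by 0.41 ± 0.11 from 10.89, 10.92, 10.93 and 10.99 to 11.42, 11.10, 11.57 and 11.30. Neither gene's groups overlapped. Both calls were lost without bleomycin replicate 1 and without bleomycin replicate 3, where 2 of the 6 genes rose, and that of Kdelr2 also without control replicate 1, 2 or 3. The remaining receptor gene, Kdelr1, which is no member, differed by 0.08 and did not pass (95% interval -0.12 to 0.28).

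Mia3 encodes TANGO1, which loads bulky procollagen at ER exit sites. It differed by 0.09, with a 95% interval of -0.11 to 0.29, and its groups overlapped. Sec61b, a small subunit of the translocation channel, differed by 0.34 ± 0.12 (limma adjusted p = 0.0673). Bleomycin replicate 2, at 4.72, stood below the other bleomycin arrays (5.10 to 5.14), and without it Sec61b passed (adjusted p = 0.0155). Its row averaged 4.67 in control, near the level of rows with no gene, and a dimmer second row differed by 0.49 ± 0.22 without passing. The size of its difference is therefore uncertain.

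**Figure D2:**
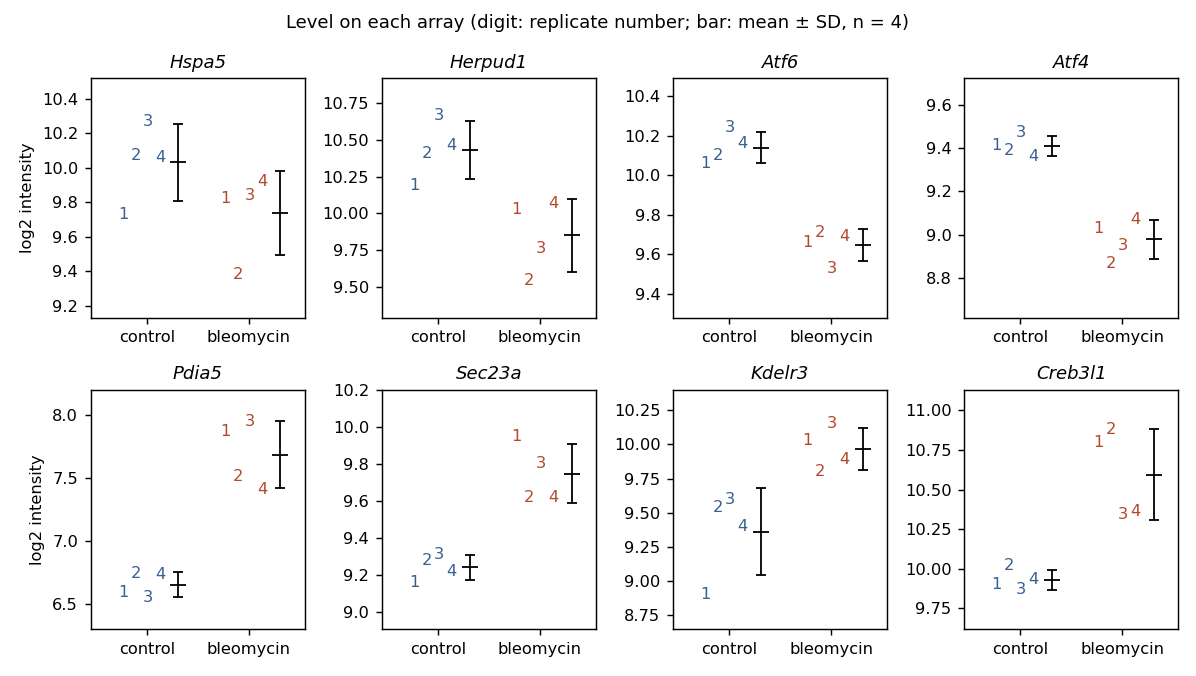
Level on each array (log2 intensity, vertical axis, own range for each gene) of 8 genes in control and bleomycin samples; digits are replicate numbers and bars the mean ± SD (n = 4). Hspa5 overlaps between the groups, Herpud1, Atf6 and Atf4 lie lower after bleomycin, and Pdia5, Sec23a, Kdelr3 and Creb3l1 lie higher.

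The stress sensors and their transcription factors divided. Of 9 genes 2 rose and 2 fell, against 9.12% and 8.24% of all genes, and the median difference was -0.05. Atf6, the membrane-bound factor that is cut in the Golgi and then induces ER chaperones, lay at 10.06, 10.10, 10.24 and 10.16 in control and at 9.66, 9.71, 9.53 and 9.69 after bleomycin. The groups were far apart relative to their spread, and Atf6 fell by 0.50 ± 0.09 (limma adjusted p = 0.00304). The mRNAs of the other sensors did not pass. Ern1, which encodes IRE1, differed by 0.01 (95% interval -0.19 to 0.20), and Eif2ak3, which encodes PERK, by -0.15 (-0.35 to 0.05). Cutting of ATF6, phosphorylation of PERK and the splicing of Xbp1 by IRE1, through which the sensors act, were not measured by these values.

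Downstream of PERK, Atf4, whose product drives amino acid supply and stress genes, fell by 0.43 ± 0.08. It lay at 9.41, 9.39, 9.47 and 9.36 in control and at 9.03, 8.87, 8.95 and 9.07 after bleomycin (limma adjusted p = 0.0053). Both Atf4 and Atf6 kept their calls in each fit without 1 array and lost them within replicates 1 and 2 alone and replicates 3 and 4 alone, where Atf4 differed by -0.45 and -0.41 and Atf6 by -0.40 and -0.59. Ddit3, which encodes the death-promoting factor CHOP, lay at 7.43, 7.41, 7.58 and 7.56 and then at 7.17, 7.24, 7.27 and 7.29. Its groups did not overlap, but the difference of -0.26 ± 0.08 missed the threshold (limma adjusted p = 0.0593). It passed in 5 of the other fits, among them median centring. Trib3, a pseudokinase gene induced by CHOP and ATF4, differed by -0.05 (95% interval -0.34 to 0.24) at a low level of 5.17 in control. Xbp1, the target of IRE1, lay at 10.52 to 10.60 in control and at 10.73, 10.41, 10.39 and 10.62 after bleomycin, a difference of -0.02 (-0.24 to 0.19).

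Creb3l1 and Creb3l2 went the other way. Their products resemble ATF6 in being held in the ER membrane and cut in the Golgi. Creb3l1 lay at 9.90, 10.02, 9.87 and 9.93 in control and at 10.80, 10.88, 10.34 and 10.36 after bleomycin. It rose by 0.67 ± 0.13, or 1.59-fold (limma adjusted p = 0.00672), with 0.89 within replicates 1 and 2 and 0.45 within replicates 3 and 4, where it did not pass (adjusted p = 0.098). Whether these values differ was not tested. Creb3l2 rose by 0.44 ± 0.11 from 9.59, 9.71, 9.65 and 9.64 to 10.39, 9.96, 10.07 and 9.93 (limma adjusted p = 0.0215), and its call was lost without control replicate 1 or 3, where 1 of the 9 genes rose.

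The calls can be set beside the promoters shown above. Of the 8 members with an ER stress element Calr and Pdia6 rose, and Hspa5, Hsp90b1, Canx, Dnajc3, Creld2 and Syvn1 did not pass, with differences from -0.29 to 0.22. The members with TGACGTGG, Sec24d and Kdelr3, rose. Herpud1, with the ER stress element II, fell. Of the 9 members that rose and have a promoter in the table, 2 held the ER stress element and 2 TGACGTGG. The rest of these 9 held none of the 3 elements. Kdelr2, Creb3l1 and Atf6, which passed, and Hyou1 and Manf, which did not, have no promoter in the table and were not searched. These counts are descriptions and were not tested.

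The arrays of a group also differed among themselves across many of these genes. Bleomycin replicate 2 was the lowest bleomycin array in 25 of the 34 members and in 28.1% of all genes, and the median member lay 0.13 log2 units below its group mean there (-0.13). Control replicate 1 was the lowest control in 20 of 34 members and in 25.3% of all genes. Among 186 other secretory pathway genes bleomycin replicate 2 was lowest in 93, while control replicate 1 was lowest in 60 and control replicate 2 in 61. Both held for 17 members, among them Hspa5, Pdia6, Herpud1, Serpinh1, Sec23a and Kdelr3, while Creb3l1 was highest on bleomycin replicate 2. Without bleomycin replicate 2, 11 members were higher and 3 lower, with Pdia3 no longer and Sec61b newly among those that passed. Without control replicate 1 the number higher was 7.

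**Figure D3:**
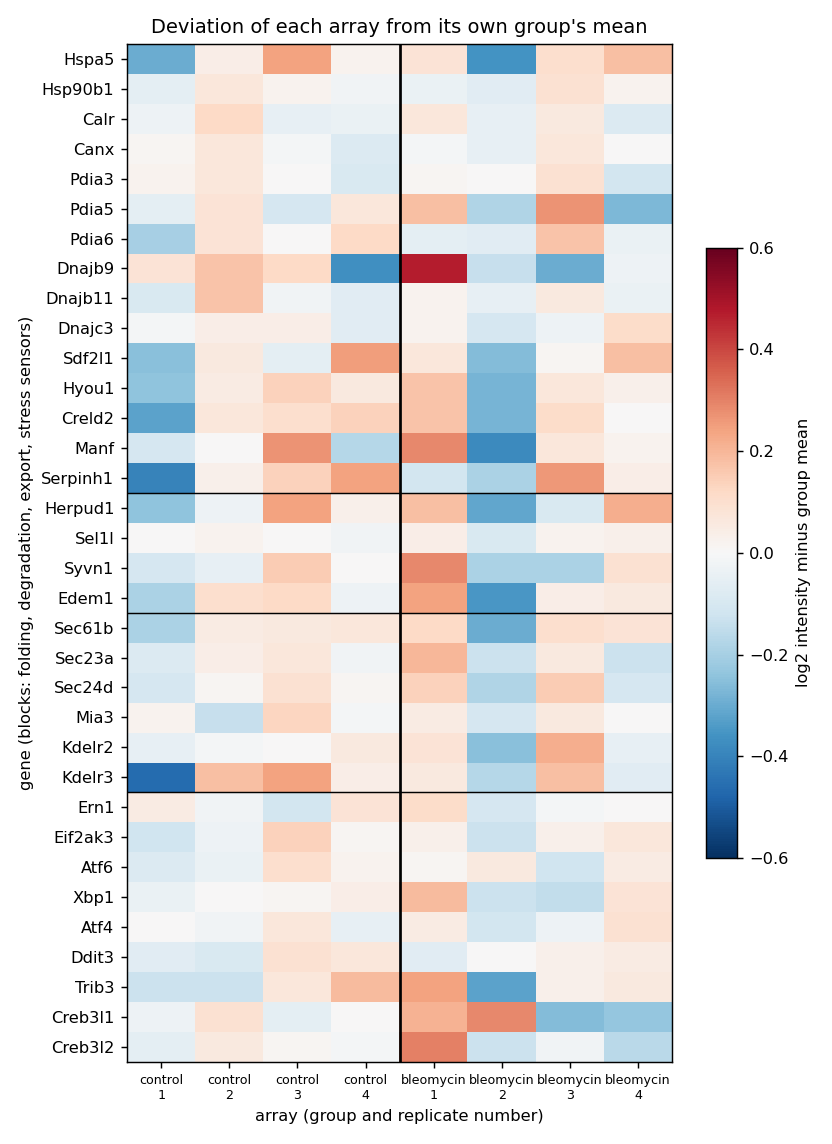
Log2 intensity of each measured gene on each array minus the mean of its own group (colour), with genes in rows by role and arrays in columns. Control replicate 1 and bleomycin replicate 2 are the columns with the most negative values, being lowest in 20 and 25 of the 34 genes.

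The wider pathway was described with 8 lists of genes that are not members. Of 186 measured genes 43 rose and 7 fell, against 9.12% and 8.24% of all genes. Their median difference was 0.11, against 0.03 over all genes. Each list is described by its counts, to be read beside those shares, and the named genes are those with the largest changes. Of 26 other folding genes 5 rose and 1 fell. The prolyl isomerases Fkbp11, Ppic and Fkbp14 rose by 1.52 ± 0.16, 1.01 ± 0.16 and 0.42 ± 0.08, and the disulfide oxidase Ero1b fell by 0.44 ± 0.13. The call of Ero1b held in 3 of the 8 fits without 1 array, with adjusted p up to 0.0913. Fkbp11 thus changed more than any member, from 6.28 ± 0.23 to 7.80 ± 0.30 (SD, n = 4 each).

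Of 16 genes of N-glycosylation 6 rose and 0 fell by limma (8 higher and 1 lower at an unadjusted p under 0.05), with a median of 0.20. The oligosaccharyltransferase subunit Ostc rose by 0.76, the mannosyltransferase Alg3 by 0.54 and the glucosidase Mogs by 0.44. The call of Mogs held in 4 of the 8 fits without 1 array. Of 23 other translocation genes 6 rose and 0 fell by limma (11 and 0 unadjusted), with a median of 0.19. Among those that rose were Tram2 (0.49), which is known to aid collagen synthesis, the translocon-associated Ssr2 (0.45) and the signal peptidase subunit Spcs3 (0.42). The call of Spcs3 held in 2 of those 8 fits, with adjusted p up to 0.0936, and was lost with median centring. Of 33 other COPII and early export genes 6 rose and 0 fell by limma (13 and 0 unadjusted), with a median of 0.07. The cargo receptors Lman1 and Surf4 rose by 0.48 and 0.40 and the tethering subunit Trappc1 by 0.44. Of 16 COPI and retrieval genes 3 rose and 0 fell by limma (6 and 2 unadjusted), namely Copb2 (0.49), Arf4 (0.36) and Gbf1 (0.27). The call of Arf4 held in 3 of the 8 fits that left out 1 array and that of Gbf1 in none, and both were lost with median centring.

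Of 22 other degradation genes 3 rose and 1 fell, with a median of 0.00. The extraction factors Vcp and Faf2 rose by 0.34 and 0.37, the lectin Erlec1 by 0.29, and the ligase Marchf6 fell by 0.33. In the 8 fits without 1 array the call of Vcp held in 3, that of Erlec1 in 1 and that of Marchf6 in 6, and Erlec1 lost its call with median centring. Of 19 other sensors and regulators 2 rose and 2 fell. The counts in these lists of degradation genes and of sensors lie near the shares over all genes given above, 9.12% higher and 8.24% lower. Ppp1r15a encodes GADD34, which promotes the removal of phosphate from eIF2α and so helps to end PERK signalling. Ppp1r15a fell by 1.28 ± 0.11, from 7.80, 7.93, 7.97 and 8.19 to 6.64, 6.69, 6.57 and 6.88. The kinase gene Map3k5 fell by 0.88, the interferon-inducible eIF2α kinase gene Eif2ak2 rose by 0.70 and the ER phosphatase gene Ptpn1 by 0.45.

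Of 31 measured genes known as ATF4 targets 12 rose and 3 fell, against 9.12% and 8.24% of all genes. The mRNA of Atf4 was lower, and the ATF4 protein was not measured. The amino acid transporter gene Slc7a5 rose by 1.97 ± 0.16, Rcan1, an inhibitor of calcineurin, by 1.68 ± 0.10 and the folate enzyme gene Aldh1l2 by 1.42. Atf3, a stress-induced repressor, fell from 10.92 ± 0.13 to 9.12 ± 0.50 (SD, n = 4 each) and the lipoprotein receptor gene Vldlr by 0.79. Centring each array on its median moved the share of passing genes that were higher from 52.5% to 41.2% over all genes. In the retrieval list, where 3 genes had passed, this share went from 100% to 50%. It went from 100% to 83.3% in the glycosylation list, from 80% to 66.7% in the ATF4 list and from 78.6% to 71.4% over the members. It also fell in the lists of other folding genes, other degradation genes and sensors. The share stayed at 100% in the folding and export members and in the translocation and COPII lists. With quantile normalization it stayed at 100% in the retrieval and glycosylation lists and was 81.2% in the ATF4 list and 48.6% over all genes.

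**Figure D4:**
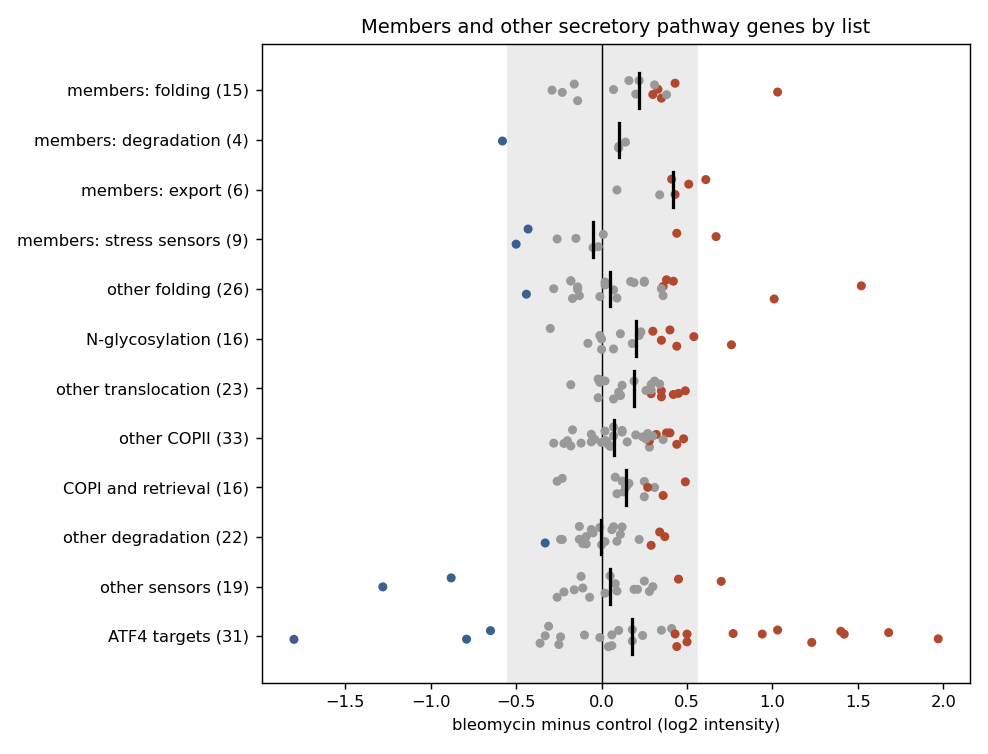
Differences between bleomycin and control (log2 intensity, horizontal axis) of the measured members by role and of 8 lists of other pathway genes, with the number of genes in brackets; red and blue points passed as higher and lower, black bars are medians, and the grey band spans the 5th to 95th percentile of all genes (-0.55 to 0.56). The export members have the highest median, 0.42, and the ATF4 targets spread over the widest range.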

How the data were processed

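The deposited values are log2 intensities, 1 per probe set and array, and the scale is inferred from their range of 0.24 to 13.58. The authors' background correction, summarisation and normalization are, for each step, not given in the sources used here. Of 41345 rows, 23521 were annotated to 1 gene by the platform table, and the brightest row of each gene by its mean over the 8 arrays gave 22180 genes, all tested without a filter on low values. A linear model in limma 3.58.1 (R 4.3.3; lmFit, then eBayes) gave two-sided p-values for bleomycin minus control, which were adjusted by Benjamini-Hochberg over all genes, with a threshold of 0.05. The test was checked on simulated data. The array medians over the tested genes differed by up to 0.071. The medians of rows with no gene were 4.44 to 4.52 on control and 4.2 to 4.35 on bleomycin arrays. The part of this shift in the differences was not tested. Precision is limited by the number of arrays.

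The members and lists were chosen with earlier results of these data known. All measured members are described. From each other list the named genes are the largest changes that passed, up to 3 in the direction most took and up to 2 in the opposite one. Promoter windows came from a RefSeq table of GRCm38.p6 and were matched by Entrez identifier (29 of 34 members). Protein sequences were not used here, so the planned look at ER retention signals was not made. Alternatives were blocks, normalizations, filters, row choices, left-out arrays, a marker covariate and stricter thresholds. Figures used matplotlib 3.10.9.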

Additional observations from a re-analysis of the deposited data

Results flagged for a closer look

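In groups of 4 arrays the gap of the highest or lowest array to its nearest neighbour was compared with the group's range. It exceeded Dixon's 95% limit in 10 of 126 groups, where about 1 in 20 would by chance. Among the members, control replicate 2 stood above the other controls in Calr (11.88 against 11.71 to 11.72) and bleomycin replicate 3 above the other bleomycin arrays in Pdia6 (11.16 against 10.91 to 10.94). Control replicate 4 stood low in Dnajb9 (9.51 against 9.97 to 10.05). Control replicate 1 stood low in Creld2 (8.48 against 8.87 to 8.94) and in Sec61b (4.49 against 4.72 to 4.75), and bleomycin replicate 2 stood low in Sel1l (9.78 against 9.89 to 9.91) and Sec61b (4.72 against 5.10 to 5.14). Among the other pathway genes, control replicate 1 was low in Ssr2 (10.51), bleomycin replicate 1 high in Gbf1 (9.54) and control replicate 4 high in Rcan1 (9.22).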

How the results depend on the processing

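None of the 14 called members changed sign in any of the 24 other settings. Their groups did not overlap and each gene had 1 row, so left-out arrays and row choices could not change a sign. Nor could blocks, filters, array weights, the stricter fold or the stricter adjusted p. Only the normalizations and the marker covariate could. With only replicates 1 and 2, limma called 838 genes higher and 833 lower, with 2 members higher and 0 lower (folding 1, export 0, sensors 1 higher and 0 lower, degradation 0 lower). Within replicates 3 and 4 alone the counts were 503 and 220, with 0 members in either direction and in each role by limma. With replicates 3 and 4 as the only controls they were 1205 and 992, with 2 members higher (folding 1, export 0, sensors 1). With the marker covariate they were 39 and 5, and 0 in all member groups. Requiring at least 1.5-fold left 992 and 923 genes, 3 members higher (folding 1, export 1, sensors 1) and 0 lower, so 0 in degradation and 0 among the sensors. An adjusted p under 0.01 left 1079 and 879 genes and 3 members higher (folding 1, export 1, sensors 1). It left 2 members lower, Atf6 and Atf4 among the sensors, and 0 lower in degradation. Fewer arrays and stricter limits pass fewer genes by construction.

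Leaving out 1 array gave 6 to 11 members higher and 2 to 3 lower. By role it gave 2 to 5 folding, 2 to 5 export and 1 to 2 sensor genes higher, and 0 to 1 degradation and 2 sensor genes lower. Sign changes touched only genes that did not pass, apart from Ero1b (0.048 with the covariate, where it did not pass). With the covariate Dnajb9 was at 0.25, Hyou1 at -0.12, Creld2 at -0.082, Serpinh1 at -0.12, Mia3 at -0.065 and Xbp1 at 0.047. With replicates 3 and 4 as the only controls Hyou1 was at -0.029. Within replicates 1 and 2 Ern1 was at -0.0076, Xbp1 at 0.032 and Trib3 at 0.039, and with median centring Ern1 was at -0.044. Without 1 array Hyou1 ranged from -0.011 to 0.16, Ern1 from -0.031 to 0.04, Xbp1 from -0.087 to 0.026 and Trib3 from -0.13 to 0.06. The cause of these sign changes was not tested.

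The deviations of arrays with the same replicate number correlated by 0.13, 0.06, 0.11 and 0.06 for replicates 1 to 4. The highest correlation of each control array with a bleomycin array of another number was 0.07, 0.08, 0.08 and 0.11. These values do not settle whether the samples were paired. With the replicate number as a block 1937 genes were higher and 1838 lower, and 10 members were higher and 3 lower. Of the called members Dnajb11 lost its call there (adjusted p = 0.051), and of the other named genes Ero1b, Gbf1 and Erlec1 did.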
